A study of Mus musculus with 44 samples.

Results

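The potassium channel genes of the mouse are described here as the protein-coding genes whose symbol begins with Kcn in the GENCODE M21 annotation, matched by Ensembl identifier. There were 94 of them among 55487 gene rows, and all 94 had a row both in the table of bulk nucleus accumbens and in the table of sorted nuclei. By symbol they fell into 30 pore-forming subunits of voltage-gated channels (Kv; Kcna, Kcnb, Kcnc, Kcnd, Kcnh and Kcnq), 10 electrically silent Kv subunits (Kcnf, Kcng, Kcns and Kcnv), 12 Kv auxiliary subunits (Kcnab, Kcne and Kcnip), 15 inward rectifiers (Kir; Kcnj), 14 leak channels with tandem pore domains (K2P; Kcnk), 9 calcium-activated channel genes (Kcnma, Kcnmb and Kcnn), 3 sodium-activated or Slo3 genes (Kcnt and Kcnu) and Kcnrg, a regulator of channel assembly.

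Bulk tissue came from males given a herpes simplex virus vector, HSV-GFP in 4 libraries or HSV-RXRa-GFP in 4, where RXRa is retinoid X receptor alpha, a nuclear receptor. Nuclei sorted as D1 or D2, the usual names for striatal neurons with Drd1 or Drd2, came from animals given AAV9-CAG-DIO-EGFP or AAV9-CAG-DIO-EGFP-P2A-RXRa, whose DIO insert is expressed only where Cre recombinase is present. The EGFP and RXRa libraries numbered 5 and 4 in D1 females, 5 and 4 in D1 males, 4 and 4 in D2 females and 5 and 4 in D2 males. The Cre driver, strain, age, interval after infusion and number of animals behind a library are not given in the sources used here, so that p-values measure the spread between these libraries only.

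Potassium channels let potassium ions leave the cell and so set the resting potential, repolarise the action potential and limit repetitive firing. In the projection neurons that make up most of the accumbens, strong inward rectifiers hold the membrane at a negative resting state, while A-type Kv4 channels with their KChIP partners and slowly inactivating Kv1 channels delay the first spike. KCNQ channels carry the M current, which muscarinic and other receptors close, and calcium-activated BK and SK channels shape the afterhyperpolarisation.

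The bulk libraries held 21567565 to 29167142 counts each, and the grouped and unassigned sorted libraries 12211655 to 27757463. The vector-encoded RXRa sequence had 0 counts in the 4 bulk GFP libraries and 567 to 914 in the 4 bulk RXRa libraries, and 0 to 17 counts in the 19 sorted EGFP libraries against 1216 to 13017 in the 16 sorted RXRa libraries. Under EGFP, all 5 markers of D2 neurons examined were higher in D2 than in D1 nuclei and 3 of 5 markers of D1 neurons were lower, by edgeR's quasi-likelihood test at an adjusted p under 0.05. Counts of the sorted libraries followed the length of the whole gene rather than of its exons. Over 1576 long genes with no count in any bulk library, Spearman's rho across genes was 0.80 with gene-body length and 0.07 with exon length. The median level of these genes, in CPM (counts scaled to a common library size) per kb of gene body, is called silent-gene density below. It was 0.55 ± 0.02 (SD, n = 4) in D2 female EGFP, 0.43 ± 0.10 (n = 4) in D2 female RXRa, 0.55 ± 0.03 (n = 5) in D2 male EGFP and 0.43 ± 0.09 (n = 4) in D2 male RXRa. Library 4 of the D2 female RXRa group stood apart. It had the lowest density of the 35 grouped sorted libraries, 0.303, the most vector RXRa counts, 13017, and the highest summed level of the 94 genes, 20658 CPM against 8600 to 16768 in the other 34.

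In bulk tissue under GFP the channel genes spanned a wide range, given as CPM per kb of exon so that genes can be compared. Kcnj4, a strong inward rectifier (Kir2.3), had the highest level at 117 ± 5.68 CPM per kb (SD, n = 4). Kcnip2, the KChIP that joins Kv4 channels, followed at 83.2 ± 6.88, and Kcnab2, a cytoplasmic beta subunit of Kv1 channels, at 59.8 ± 8.70. The next ranks were closer together. Kcnj10, the inward rectifier known from astrocytes, stood at 37.1 ± 2.62, Kcnd2 (Kv4.2) at 34.3 ± 2.34, Kcnip3 at 34.2 ± 4.89, Kcnab1 at 32.04 ± 2.57 and Kcnk1 at 31.0 ± 3.00, and neighbours in this run differed by about their SD or less. Kcnd2 led the Kv class and Kcnk1 the K2P class. Leaders of the remaining classes were Kcnf1 (21.1 CPM per kb) among silent Kv subunits, Kcnma1, the BK pore (10.1), among calcium-activated genes, and Kcnt1 (21.4), a sodium-activated channel. Kcnrg had 0.30 CPM per kb.

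Of the 94 genes, 56 had a mean above 10 CPM over the 8 bulk libraries, 19 had 1 to 10 CPM, 18 were under 1 CPM and 1, Kcnj1, the renal inward rectifier, had no count. Besides Kcnj10, genes known from other cells were present in the tissue. Among them were Kcnc1 (15.9 CPM per kb of exon), a fast Kv3 channel of fast-spiking interneurons, Kcnk13 (7.11), which microglia express, Kcnj16 (4.17), a partner of Kcnj10, and Kcnj8 (2.44), the ATP-sensitive channel pore of pericytes.

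**Figure D1:**
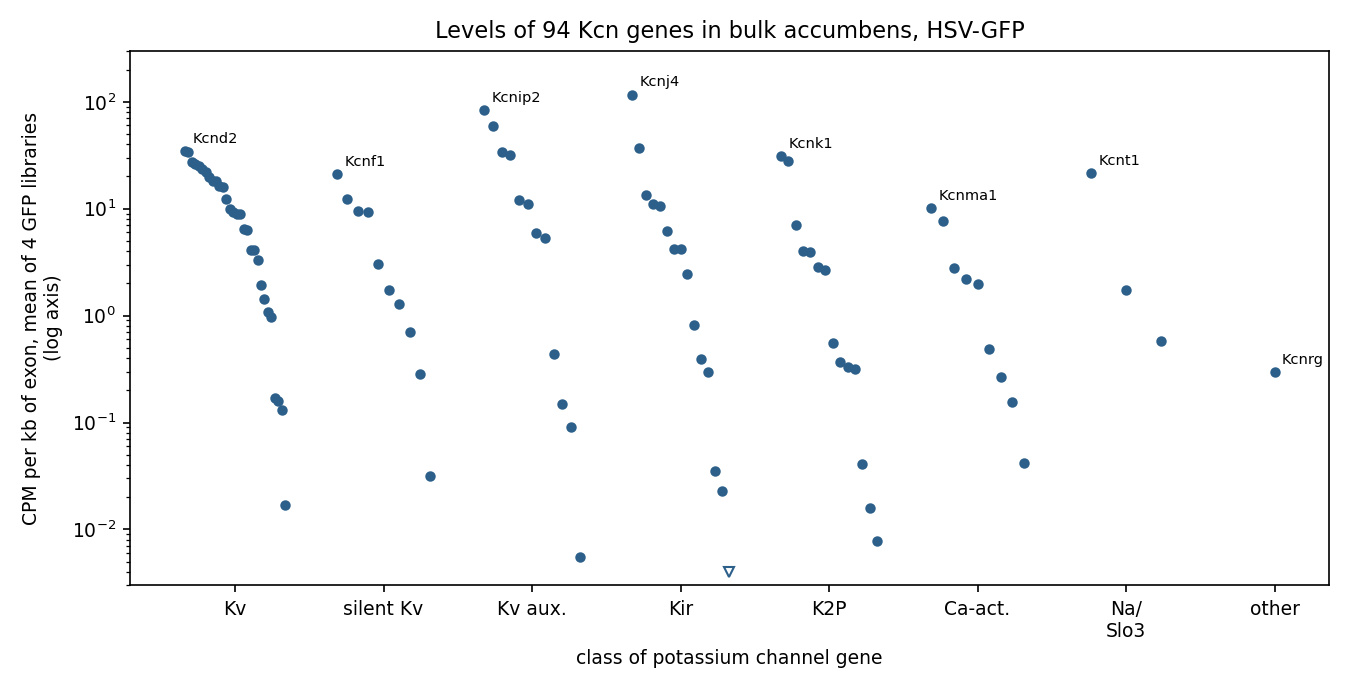
Level of each of the 94 Kcn genes in bulk accumbens under HSV-GFP, in CPM per kb of exon (log axis), by class. Each point is the mean of 4 libraries, the highest member of each class is named, and the open triangle at the bottom is Kcnj1, with no count. Kcnj4 stands highest at 117 CPM per kb, above Kcnip2 at 83.2.

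In bulk tissue, no channel gene passed the test between HSV-RXRa-GFP and HSV-GFP. None of the 82 genes that passed the filter on low counts had an adjusted p under 0.05 by edgeR's quasi-likelihood test, where 3.7% of all 18579 genes tested did. The genes closest to the threshold were all lower under RXRa and belong to the A-type, Kv1 and M-current channels of projection neurons. At an unadjusted p under 0.05, 11 of 82 passed, 8 lower and 3 higher, while 21.5% of all genes did, 9.75% lower and 11.7% higher. Estimates were below 0 in 49 and above 0 in 33 (46.5% of all genes were above 0), with a median of -0.08 against -0.02 over all genes tested.

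Kcna4 (Kv1.4, chromosome 2, 107290639 to 107298502, a rapidly inactivating Kv1 channel) had 77.4, 81.4, 90.3 and 102 CPM in the GFP libraries and 73.3, 67.0, 63.3 and 68.4 CPM in the RXRa libraries. All 4 RXRa libraries lay under all 4 GFP libraries. The log2 fold change was -0.37 (SE 0.09) with an adjusted p of 0.0546 by edgeR. Kcnd2 (Kv4.2, chromosome 6, 21215503 to 21729805), the main A-type pore, had 167, 166, 185 and 189 CPM under GFP and 146, 161, 137 and 131 CPM under RXRa. Its groups did not overlap either, and the log2 fold change was -0.30 (SE 0.08, adjusted p = 0.0663 by edgeR).

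Kcnip4 (KChIP4, chromosome 5, 48389502 to 49524907), a calcium-binding partner of Kv4 channels, had 37.3, 39.3, 41.0 and 42.2 CPM under GFP against 34.7, 34.6, 35.3 and 33.7 CPM under RXRa, which do not overlap, and gave -0.21 (SE 0.05, adjusted p = 0.0714 by edgeR). Several annotated genes overlap Kcnip4 on either strand and may share its reads. Kcnq5, an M-current pore, had 180 to 204 CPM under GFP and 150 to 180 under RXRa, the highest RXRa library lying just above the lowest GFP library. Kcnh4, a Kv12 channel, had 32.4 to 36.4 CPM under GFP and 37.0 to 47.7 CPM under RXRa, with no overlap. In all, 5 of 82 genes had no overlap between groups, among them Kcna4, Kcnd2 and Kcnip4 as lower and Kcnh4 as higher, a smaller share than the 13.2% of all genes tested that had none.

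**Figure D2:**
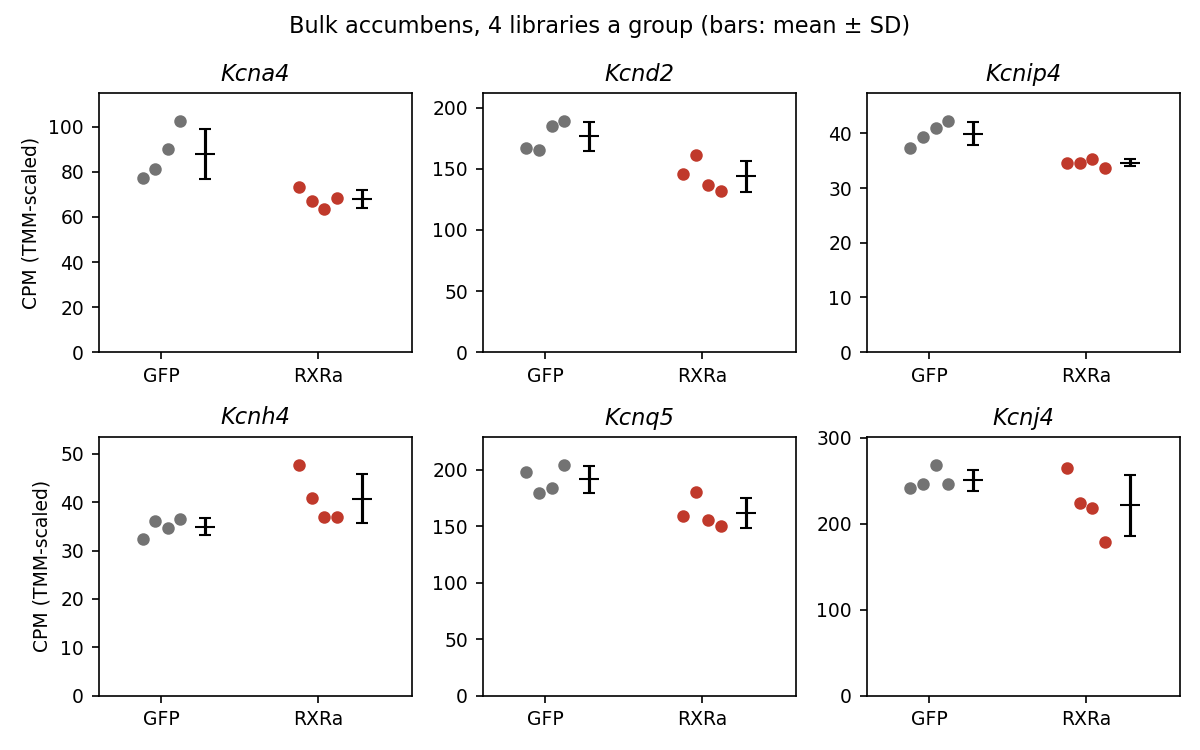
CPM (TMM-scaled, linear axis from 0) of 6 Kcn genes in bulk accumbens, 1 point a library, 4 GFP (grey) and 4 RXRa (red), with mean ± SD in black. Points of the groups do not overlap for Kcna4, Kcnd2, Kcnip4 and Kcnh4, and do overlap for Kcnq5 and Kcnj4. None passed the adjusted threshold.

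By class, the bulk log2 fold change was below 0 in 21 of 29 Kv genes tested (median -0.12), 6 of 9 silent Kv subunits (-0.15), 6 of 9 Kv auxiliary subunits (-0.06), 5 of 12 inward rectifiers (median 0.04) and 4 of 11 K2P genes (median 0.11). The difference followed level as well as class. Among the 56 genes above 10 CPM, 41 were below 0, with a median of -0.12, while the median of all 11131 tested genes above 10 CPM was -0.04. Of the list of 32 channels known from projection neurons, 26 were below 0 and none passed, with a median of -0.14. Kcnj4 had 241, 246, 269 and 247 CPM under GFP and 265, 224, 219 and 179 CPM under RXRa, groups that overlap (-0.18, SE 0.10, adjusted p = 0.36 by edgeR).

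Markers of cell types moved between the bulk groups too. Of 5 markers of projection neurons and 5 of D2 neurons, 1 each passed the test as lower, 1 of 5 astrocyte markers and 3 of 5 T cell markers passed as higher, and 0 of 5 oligodendrocyte markers passed. Summed markers of projection neurons were at 3081 to 3470 CPM under GFP and 2790 to 3116 CPM under RXRa, and those of oligodendrocytes at 4275 to 4812 and 2586 to 4471 CPM. In bulk tissue fewer cells of a type and less RNA per cell cannot be told apart, and the part of these shifts in the channel values was not tested. The calls in bulk depend on the tool. DESeq2 called 5 channel genes, all lower, among them Kcna4, Kcnd2, Kcnip4 and Kcnq5, and the test without the filter on low counts called Kcna4 alone. Neither count can be set against all genes, since the share of all genes called in these fits is not given here.

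In D1 nuclei no channel gene passed either. Of 94 tested, 0 had an adjusted p under 0.05 by edgeR over both sexes, as did 0% of 43902 genes. At an unadjusted p under 0.05, 10 were higher and 1 lower with RXRa, against 4.27% of all genes higher and 8.01% in either direction, and the median log2 fold change was 0.02 (all genes -0.01). The smallest p-values belonged to Kcnq3, Kcnb2 and Kcnq5. Kcnq3, an M-current subunit, had 409, 389, 335, 310 and 610 CPM in female EGFP libraries and 653, 363, 608 and 783 CPM in female RXRa libraries, with 423, 409, 583, 430 and 446 against 727, 611, 439 and 594 CPM in males. Its groups overlap in both sexes. RXRa against EGFP gave 0.46 on the log2 scale (SE 0.16, adjusted p = 0.581 by edgeR). Kcnb2 (Kv2.2, a delayed rectifier) gave 0.23 (SE 0.08) and Kcnq5 0.48 (SE 0.18), with the same adjusted p of 0.581 by edgeR. With library totals alone as the scale, the median over the 94 genes was -0.05 and that over all genes -0.09, so the sign of the median in D1 depends on the scaling.

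In D2 nuclei, 37 of the 94 channel genes differed between RXRa and EGFP, 31 higher and 6 lower with RXRa (edgeR, adjusted p under 0.05 over both sexes). Over all 43902 genes tested, 22.1% passed, 14.9% higher and 7.14% lower. At an unadjusted p under 0.05, 44 passed (37.1% of all genes), and 58 were above 0 (44.1% of all genes). The genes that rose were led by the A-type, Kv1 and M-current subunits, among them Kcnip4, Kcnd2, Kcna4, Kcna1, Kcnq5 and Kcnq3. Those that fell were Kcnj8, Kcnk16, Kcnmb2, Kcns3, Kcna10 and Kcnk10. How many pass in each direction depends on how libraries are scaled and on a few libraries, as is shown after the values. The count falls to 0 when same-numbered libraries are fitted as blocks, as is given in the last sections.

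Kcnip4 had 1388, 1618, 1629 and 1870 CPM in the D2 female EGFP libraries and 2105, 1674, 5698 and 2987 CPM in the D2 female RXRa libraries. In males it had 1648, 1592, 1484, 1681 and 1992 CPM under EGFP and 1815, 1874, 3143 and 3921 CPM under RXRa. Female RXRa library 4 lay far above the other 3 of its group, and the lowest RXRa libraries lay among the EGFP libraries in both sexes. The log2 fold change was 0.81 (SE 0.19, adjusted p = 0.0113 by edgeR).

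Kcnd2 had 1088, 1049, 1053 and 1210 CPM in female EGFP libraries against 1437, 1089, 3227 and 2217 CPM with RXRa, and 1029, 1086, 1037, 1437 and 1266 against 1109, 1303, 2109 and 2576 CPM in males. The fold change on the log2 scale was 0.73 (SE 0.19, adjusted p = 0.0134 by edgeR). Of the other A-type subunits, Kcnd3 (Kv4.3) rose by 0.23, Kcnip2 by 0.58 and Kcnip3 by 0.39 on the log2 scale, while Kcnd1 (Kv4.1) was at 0.04 (adjusted p = 0.767 by edgeR) and Kcnip1 at 0.01 (adjusted p = 0.934 by edgeR). Kcnip1 overlaps Kcnmb1 on the opposite strand, and Kcnd3 overlaps Kcnd3os.

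Kcnq5 (chromosome 1, 21398403 to 21961942) had 952, 986, 1015 and 1237 CPM in female EGFP libraries and 1395, 1085, 3112 and 2335 CPM with RXRa, with 1025, 1031, 1048, 1185 and 1372 against 1176, 1386, 2183 and 2387 CPM in males. As for Kcnd2, libraries 4 and 5 of the female RXRa group and libraries 3 and 5 of the male RXRa group lay far above every D2 EGFP library. For Kcnq5, library 2 of each RXRa group lay just above the highest D2 EGFP library, and library 3 of the females and library 1 of the males lay among the EGFP libraries. The log2 fold change was 0.79 (SE 0.19, adjusted p = 0.0111 by edgeR). Kcnq3 rose by 0.63. Kcnq1, the cardiac member, was called at 0.33, but it had 0.16 CPM per kb of exon in bulk and overlaps Kcnq1ot1 on the opposite strand, so that its reads are uncertain.

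Kcna4 had 33.1, 58.7, 41.2 and 36.8 CPM in female EGFP libraries and 90.3, 53.1, 104 and 64.1 CPM with RXRa, and in males 32.4, 60.8, 46.1, 54.2 and 54.9 CPM against 33.8, 66.2, 109 and 98.9 CPM. Male RXRa library 1 lay at the low end of the male EGFP libraries. Over both sexes Kcna4 rose by 0.75 on the log2 scale (SE 0.20, adjusted p = 0.0131 by edgeR). Within the Kcna subfamily, Kcna1 (0.69), Kcna2 (0.54), Kcna3 (0.62) and Kcna5 (0.67) also rose, while Kcna10 fell (-0.16). Kcna6 was at 0.08 (adjusted p = 0.369 by edgeR) and Kcna7, known from muscle, at -0.22 (adjusted p = 0.381 by edgeR). Kcna3, known from immune cells, had only 0.93 to 3.38 CPM in the D2 libraries. Their beta subunits Kcnab1 and Kcnab2 rose by 0.47 and 0.28.

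Among inward rectifiers, 2 of 15 rose and 1 fell. Kcnj4 had 22.7, 35.4, 25.6 and 20.3 CPM in female EGFP libraries and 43.6, 32.3, 50.5 and 32.3 CPM with RXRa, and 22.4, 33.4, 28.9, 30.2 and 33.5 against 23.1, 40.9, 51.6 and 49.2 CPM in males, a log2 fold change of 0.54 (SE 0.14, adjusted p = 0.0137 by edgeR). Kcnj11, the pore of neuronal ATP-sensitive channels, rose by 0.39 (SE 0.13). Kcnj2, the other main strong rectifier, was at 0.47 (SE 0.19, adjusted p = 0.0752 by edgeR). The GIRK subunits Kcnj3, Kcnj6 and Kcnj9, which couple to inhibitory receptors, were at -0.04, -0.09 and 0.36, and none passed.

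Kcnj8 (Kir6.1, chromosome 6, 142564837 to 142571614) had the largest fall of the 94. It had 4.15, 4.05, 4.68 and 4.30 CPM in female EGFP libraries and 2.08, 2.41, 3.33 and 2.87 CPM with RXRa, which do not overlap. In males the values were 3.93, 4.54, 4.16, 3.33 and 3.31 against 3.72, 3.40, 2.94 and 3.94 CPM, which do. The log2 fold change was -0.40 (SE 0.10, adjusted p = 0.0135 by edgeR), made up of -0.66 (SE 0.15) in females and -0.13 (SE 0.14) in males. The difference between the sexes did not pass (-0.53, SE 0.21, adjusted p = 1.00 by edgeR). Of 6 markers of endothelium and pericytes, where Kcnj8 is known to be expressed, 0 passed in D2 and 1 was above 0, and their summed level was 186 to 236 CPM in female EGFP and 174 to 210 CPM in female RXRa libraries. Their part in the fall of Kcnj8 was not tested.

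The other genes that fell did so by less. Kcnk16, a K2P channel known from pancreas, changed by -0.28 (SE 0.10), Kcnmb2, a BK beta subunit that inactivates the channel, by -0.20 (SE 0.05), Kcns3, a silent Kv subunit, by -0.19 (SE 0.05), Kcna10 by -0.16 (SE 0.06) and Kcnk10 (TREK-2) by -0.16 (SE 0.05). Kcnk16 and Kcna10 stood nearest the threshold (adjusted p = 0.0451 and 0.0443 by edgeR). Each lost its call in 11 of the 17 fits that left out 1 D2 library. All 6 had at most 10 CPM in bulk, 3 of them 1 to 10 CPM and 3 under 1 CPM. Kcnmb2 had 196, 185, 180 and 185 CPM in female EGFP libraries and 173, 185, 141 and 163 CPM with RXRa, and 186, 205, 184, 190 and 166 against 169, 159, 165 and 145 CPM in males. Its groups overlap in both sexes.

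By class in D2, Kv pore subunits numbered 18 higher and 1 lower of 30, with a median log2 fold change of 0.25. Kv auxiliary subunits had 5 higher of 12, K2P genes 2 higher (Kcnk1 and Kcnk2) and 2 lower of 14, calcium-activated genes 2 higher (Kcnma1 at 0.33 and Kcnn3, an SK channel, at 0.24) and 1 lower of 9, silent Kv subunits 1 higher (Kcnv1, 0.60) and 1 lower of 10. Of the sodium-activated and Slo3 genes, only Kcnt1 passed, as higher (0.44), of 3. The median over all 94 was 0.04, against -0.04 over all genes. Over all genes tested 14.9% rose and 7.14% fell. Of the 32 channels of projection neurons, 20 rose and 0 fell. Of these 32, 29 had over 10 CPM in bulk, a level at which 44.7% of all genes rose and 2.46% fell. Of 11 channels known mainly from other cells, Kcnc1 and Kcna3 rose and Kcnj8 fell, and the astrocyte channel Kcnj10 was at -0.12 (adjusted p = 0.19 by edgeR). The same sorted libraries had 5 of 5 projection neuron markers, 4 of 5 D2 markers and 3 of 5 D1 markers higher with RXRa in D2 nuclei and 2 of 5 astrocyte markers lower. In D2, 1 of 5 interneuron markers was lower, 1 of 5 microglial markers higher and 1 lower, and none of 5 oligodendrocyte, 3 oligodendrocyte precursor, 5 T cell and 3 cortical excitatory neuron markers passed. Summed projection neuron markers ran from 547 to 761 CPM in female EGFP, 650 to 1332 in female RXRa, 499 to 834 in male EGFP and 527 to 1360 in male RXRa libraries. The part of this in the channel values was not tested.

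**Figure D3:**
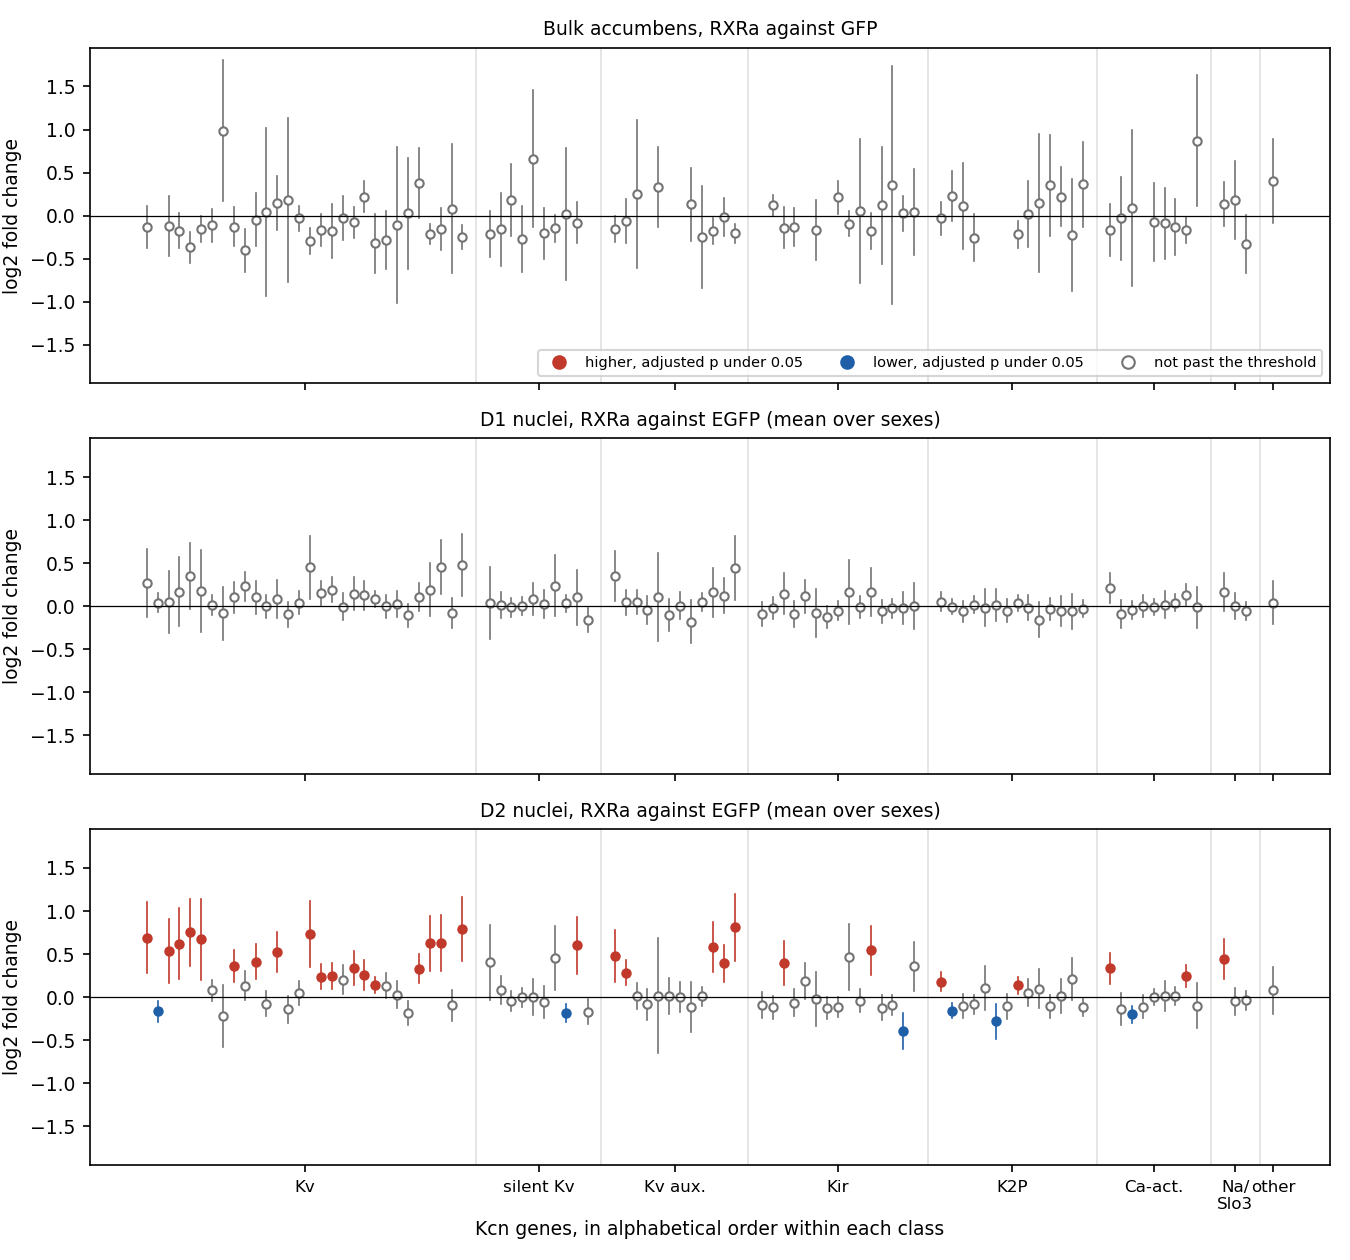
Log2 fold change of each Kcn gene with RXRa, in bulk accumbens (top), D1 nuclei (middle) and D2 nuclei (bottom), grouped by class and in alphabetical order within it. Points are estimates, lines run 2 SE to each side, red and blue points are higher and lower at an adjusted p under 0.05, and open points did not pass. Filled points appear in D2 alone, 31 higher and 6 lower.

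**Figure D4:**
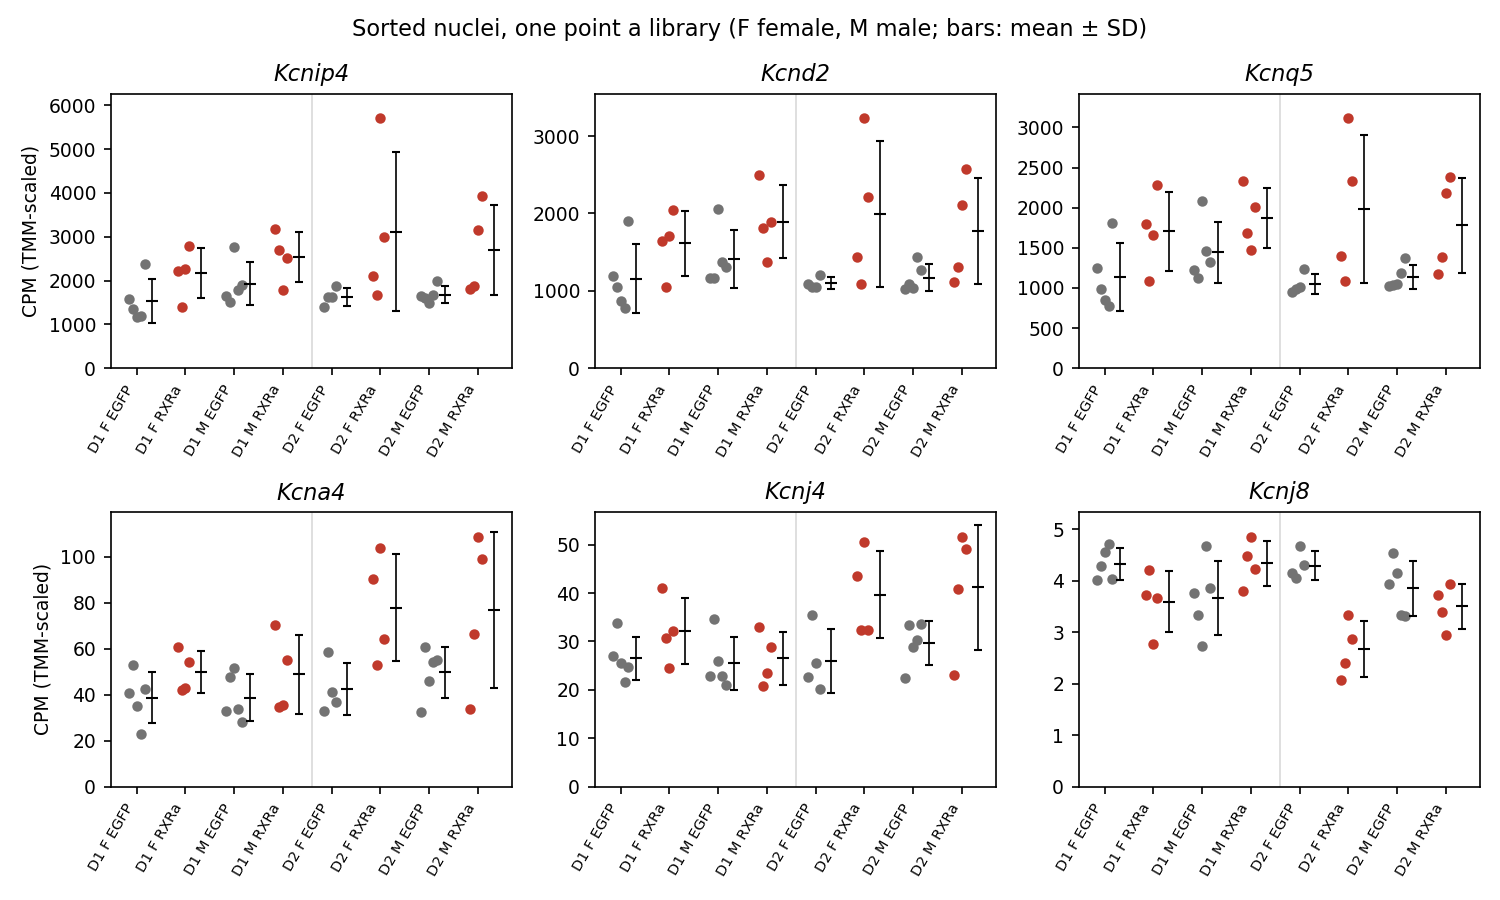
CPM (TMM-scaled, linear axis from 0) of 6 Kcn genes in the 8 groups of sorted nuclei, 1 point a library, EGFP in grey and RXRa in red, with mean ± SD in black. In D2 the RXRa libraries of Kcnip4, Kcnd2 and Kcnq5 spread from the level of the EGFP libraries to far above it, and those of Kcnj8 lie below EGFP in females.

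The D2 result rests on few libraries. None of the 94 genes had RXRa libraries clear of the EGFP libraries in both sexes (0.18% of all genes did). In females 6 had none of the libraries overlapping, 5 lower and Kcnb2 higher (6.08% of all genes), and in males 4, namely Kcnab2, Kcnh4 and Kcnj13 higher and Kcnmb3 lower (2.6% of all genes). Within females alone and within males alone, 0 of 94 passed by edgeR, and 0% of all genes did in either, with 36 and 32 at an unadjusted p under 0.05 (25.2% and 19.7% of all genes). Without D2 female RXRa library 4, 0 of 94 channel genes passed, and 39 were at an unadjusted p under 0.05. The log2 fold changes then were 0.56 for Kcnip4, 0.62 for Kcnq5, 0.65 for Kcna4, 0.54 for Kcnd2 and -0.47 for Kcnj8, at adjusted p-values of 0.0569 to 0.0707 by edgeR. Without male RXRa library 5 there were 7 calls, and without male RXRa library 3 there were 23. These losses cannot be read as particular to channel genes, since the share of all genes called in these fits is not given here. All 37 kept their sign in every fit that left out 1 D2 library.

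Scaling changes the balance of directions. With library totals alone, which moves the median of all genes in D2 from -0.04 to -0.20, 35 channel genes passed, 13 higher and 22 lower, in place of 31 and 6. On that scale 4.69% of all genes were called higher and 21.3% lower. Of the 31 that rose under the TMM scale, 13 were still called higher, none was called lower, and Kcnk2 and Kcnh5 changed sign. All 6 that fell were called lower again. On that scale the Kv class had 8 higher and 4 lower, Kv auxiliary subunits 2 higher, inward rectifiers 1 higher and 6 lower, and K2P genes 0 higher and 6 lower. Among the 13 higher on both scales were Kcna1, Kcna4, Kcnc1, Kcnd2, Kcnip2, Kcnip4, Kcnj4, Kcnq3, Kcnq5, Kcnt1 and Kcnv1. With RLE size factors, 31 were higher and 4 lower, a count given without the share of all genes. Kcnk16 and Kcna10 no longer passed then (adjusted p = 0.0604 and 0.0780 by edgeR).

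The D2 effect was compared with the level of each gene in bulk tissue, which did not enter the sorted data. Of the 56 channel genes above 10 CPM in bulk, 30 rose and 0 fell in D2, where 44.7% of all tested genes above 10 CPM rose and 2.46% fell. Of the 19 genes at 1 to 10 CPM, 0 rose and 3 fell (10.8% and 7.8% of all genes). Of the 18 under 1 CPM, 1 rose and 3 fell (5.49% and 8.01%). In the top bin 53.6% of the channel genes were called, so that most of the calls among them came from a bin in which many other genes were called too.

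Levels in the sorted libraries were also set against silent-gene density, both per kb of gene body. Kcna4 stood furthest above it, with a median ratio of 10.7 over the 19 EGFP libraries, followed by Kcna1 (6.69), Kcnj2 (4.31), Kcnd2 (4.20), Kcna2 (3.89) and Kcnq5 (3.82). Of the 94 genes, 17 had a ratio above 2, and 12 of these rose in D2 and 0 fell. Another 15 had a ratio of 1.5 to 2, with 13 higher and 1 lower, 49 had 1 to 1.5, with 6 higher and 4 lower, and 13 had at most 1, with 0 higher and 1 lower. Among those that fell, Kcnj8 had a ratio of 1.16 and Kcnk16 of 0.84. Across the 94 genes, Pearson's r between the ratio and the log2 fold change was 0.76 in D2 and 0.65 in D1. The EGFP libraries enter both measures, and genes of a library are not independent.

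Silent-gene density itself was lower with RXRa, by log2 differences of -0.40 in D2 females, -0.36 in D2 males, -0.28 in D1 females and -0.10 in D1 males, with overlapping libraries in each. With density as a covariate of each library, 0 of 94 channel genes passed in D2 and 2 were at an unadjusted p under 0.05. Kcnip4 was then at 0.07 (SE 0.15), Kcnq5 at 0.09 (SE 0.15), Kcna4 at 0.09 (SE 0.17), Kcnd2 at -0.01 (SE 0.15) and Kcnj8 at -0.35 (SE 0.13). Of the 31 that had risen, 25 kept their sign, and Kcnab1, Kcna2, Kcnd2, Kcnd3 and Kcnip3 were among those that did not. Whether the loss of calls is particular to channel genes cannot be read from this, since the share of all genes called is not given here. Density moves with the vector group, so that a fit with both shares the difference between them, and the part of density in the channel values cannot be told apart from that of the vector.

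**Figure D5:**
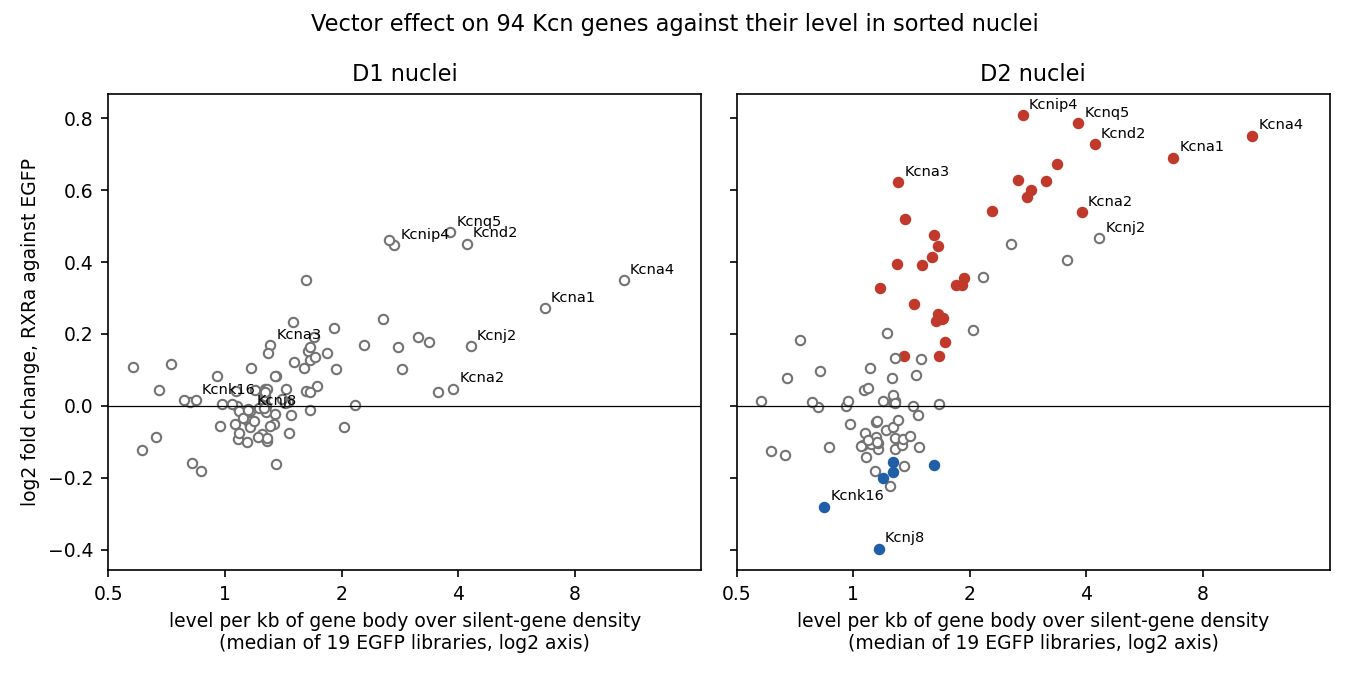
Log2 fold change of each of the 94 Kcn genes with RXRa against its level per kb of gene body divided by silent-gene density (median of 19 EGFP libraries, log2 axis), in D1 nuclei (left) and D2 nuclei (right). Red and blue points passed as higher and lower in D2, and open points did not pass. All 17 genes with a ratio above 2 lie above 0 in D2, while genes near a ratio of 1 lie on both sides of it.

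Neither population nor sex was shown to differ in its response. For the D2 effect minus the D1 effect, 0 of 94 passed by edgeR (0% of all genes), with 11 at an unadjusted p under 0.05 (8.22% of all genes). Among the smallest p-values were those of Kcns3 (-0.22, SE 0.07) and Kcnj8 (-0.38, SE 0.14), each at an adjusted p of 0.601 by edgeR. For the female effect minus the male effect, 0 of 94 passed in D1 and in D2 (0% of all genes in each), with 5 and 3 at an unadjusted p under 0.05 (2.08% and 3.02% of all genes). Of the 94 genes, 49 were above 0 in both populations, 28 below 0 in both, 9 lower in D1 and higher in D2, and 8 the reverse. Pearson's r between the D1 and D2 log2 fold changes was 0.81 across the 94 genes and 0.51 across all 43902.

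The bulk and D2 values often had opposite signs. Of the 82 genes tested in both, 43 were below 0 in bulk and above 0 in D2, 21 were above 0 in bulk and below 0 in D2, 12 were above 0 in both and 6 below 0 in both. Pearson's r was -0.45 across these genes and -0.30 across all 18280 genes tested in both, and 42.2% of the latter were lower in bulk and higher in D2. Kcna4 was at -0.37 in bulk, 0.35 in D1 and 0.75 in D2, Kcnd2 at -0.30, 0.45 and 0.73, Kcnip4 at -0.21, 0.45 and 0.81, and Kcnq5 at -0.25, 0.48 and 0.79. The 2 experiments differ in vector, RNA source, library kit and sex, bulk being from males only, and no test across them was made.

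Under EGFP alone, no channel gene was shown to differ between D2 and D1 nuclei. Of 94 genes, 0 passed by edgeR, against 0.121% of all genes, and 25 were at an unadjusted p under 0.05, 23 of them lower in D2 (10.5% of all genes, 7.06% lower). Kcnk7, a K2P gene, had 2.97, 3.28, 3.12, 2.85 and 3.08 CPM in D1 females and 3.16, 2.89, 3.56, 3.16 and 3.09 CPM in D1 males, against 2.83, 1.70, 2.03 and 2.33 CPM in D2 females and 2.75, 1.79, 2.51, 1.90 and 2.56 CPM in D2 males. Every D2 library lay below every D1 library of its sex. The log2 difference was -0.44 (SE 0.11, adjusted p = 0.121 by edgeR). Kcnj14, a strong inward rectifier at -0.45 (SE 0.14, adjusted p = 0.261 by edgeR), was the only other gene without overlap, where 0.2% of all genes had none. Kcnab2 (-0.23, SE 0.07) and Kcna6 (-0.19, SE 0.06) came next by p. With density as a covariate, Kcnk7 passed as lower (-0.45, adjusted p = 0.0494 by edgeR) and Kcnk2 as higher in D2 (0.16, adjusted p = 0.0203 by edgeR). How many of all genes passed in that fit is not given here.

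Genes without a Kcn symbol whose products bind, place or regulate potassium channels were read from a list of 24. In D2 nuclei 13 of them rose and 2 fell. Of the 24, 20 had over 10 CPM in bulk, a level at which 44.7% of all genes rose and 2.46% fell. The Kv4 partners Dpp6 (0.48, SE 0.13) and Dpp10 (0.32, SE 0.08), the Kv2 partner Amigo1 (0.62, SE 0.20), the Kv1 clustering genes Cntnap2 (0.39, SE 0.12) and Lgi1 (0.42, SE 0.11) and the scaffold Dlg4 (0.57, SE 0.13) were among the 13. Abcc9, the sulfonylurea receptor that pairs with Kcnj8, fell by 0.26 on the log2 scale (SE 0.06), as did Lrrc52 by 0.18 (SE 0.06). In D1 none of 24 passed. In bulk 23 were tested, and 1, Cntnap2, passed as lower (-0.35, SE 0.08, adjusted p = 0.0456 by edgeR).

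Promoters were searched for the core motif that nuclear receptors bind, spelled AGGTCA, or TGACCT on the opposite strand, in the 250 bases before each transcript start in the RefSeq table (assembly GRCm38.p6). Of the 94 genes, 69 had at least 1 window there, 94 windows in all. The motif was in 6 of these (6.38%), against 14.0% of all 32851 windows, and no window held a direct repeat of it spaced by 1 to 5 bases (0.0731% of all windows). Of the 37 genes called in D2, 27 had a window and 4 held the motif, against 6 of the 69 channel genes with a window. The 27 are part of the 69, and the share over all promoters is per window, not per gene. No enrichment among called genes can be read from these counts. Those 4 are shown, 5′ to 3′ on the strand of the gene, because they bear on which called genes carry the motif, which is in capitals. Kcnip4 (chr5:49285660-49285909, minus strand) and Kcnh1 (chr1:192190527-192190776, plus strand) rose in D2, and Kcna10 (chr3:107182893-107183142, plus strand) and Kcnk10 (chr12:98575128-98575377, minus strand) fell.
Kcnip4: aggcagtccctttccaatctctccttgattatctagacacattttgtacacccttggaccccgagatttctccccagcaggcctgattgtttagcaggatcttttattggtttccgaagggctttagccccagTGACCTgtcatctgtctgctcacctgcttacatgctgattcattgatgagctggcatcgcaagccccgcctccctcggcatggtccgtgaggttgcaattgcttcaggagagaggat
Kcnh1: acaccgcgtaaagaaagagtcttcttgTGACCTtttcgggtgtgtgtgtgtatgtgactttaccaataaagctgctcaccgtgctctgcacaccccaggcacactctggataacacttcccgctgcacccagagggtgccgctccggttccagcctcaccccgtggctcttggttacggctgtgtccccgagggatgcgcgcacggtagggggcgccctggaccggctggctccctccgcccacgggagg
Kcna10: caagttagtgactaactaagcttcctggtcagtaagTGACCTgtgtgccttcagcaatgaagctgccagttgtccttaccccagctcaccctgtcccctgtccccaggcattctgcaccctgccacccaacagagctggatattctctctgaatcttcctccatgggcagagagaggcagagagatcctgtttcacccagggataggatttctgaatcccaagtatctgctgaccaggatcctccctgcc
Kcnk10: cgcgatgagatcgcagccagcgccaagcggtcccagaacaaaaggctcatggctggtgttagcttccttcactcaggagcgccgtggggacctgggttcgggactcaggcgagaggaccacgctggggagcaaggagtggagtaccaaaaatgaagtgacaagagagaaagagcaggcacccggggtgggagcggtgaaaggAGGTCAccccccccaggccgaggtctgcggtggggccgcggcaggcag
The first base of the motif lay 117 bases before the start in Kcnip4, 223 in Kcnh1, 214 in Kcna10 and 48 in Kcnk10. It read TGACCT in the first 3 and AGGTCA in Kcnk10. Kcnf1 and Kcnj16, which were not called, also held it. A match describes the letters of the window and says nothing of binding.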

How the data were processed

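The authors deposited 2 tables of raw read counts per gene, 1 for bulk tissue and 1 for sorted nuclei. Per the labels' protocols, bulk RNA was poly(A)-selected, and nuclear RNA was depleted of ribosomal RNA and made into libraries with a stranded total RNA kit. The submitters' processing notes name FastQC, Trimmomatic, HISAT2, Picard, featureCounts, Subread and the build GRCm38. The strand setting, the treatment of introns and the annotation release are not given in the sources used here. Of 55487 gene identifiers, 55394 matched GENCODE release M21.

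Counts were tested with edgeR 4.0.16 in R 4.3.3 (quasi-likelihood test, TMM scaling, filterByExpr by group), with Benjamini-Hochberg adjustment over all genes and a threshold of 0.05. The 8 bulk libraries and the 35 grouped sorted libraries (8 groups) were fitted separately, and D1 and D2 contrasts weight the sexes equally. The SE is the log2 fold change over the root of F. Genes were named as those called with the largest changes and a mean of at least 1 CPM, or the smallest p-values where few were called, as the highest member of each subfamily in bulk, and from the channel lists. Other genes were named after their values were seen. The members and lists were chosen with earlier results of these data known. Alternatives used DESeq2 1.42.0, limma 3.58.1, other scalings and filters, a replicate block, silent-gene density as covariate and each library left out in turn. The scripts were tested on simulated data. One sorted library whose title and vector label disagree was left out of every comparison. Some genes of the family enter the counts but are not reported here by name.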

Additional observations from a re-analysis of the deposited data

Results flagged for a closer look

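In D1 male EGFP library 3, Kcnq3 had 583 CPM, apart from the 409 to 446 CPM of the other 4 libraries of its group. In D2 female EGFP library 3, Kcnk16 had 4.40 CPM against 3.22 to 3.34 CPM in the other 3. In D2 male RXRa library 1, Kcnk10 had 99.8 CPM against 87.3 to 89.3 CPM in the other 3. These 3 were found by Dixon's test of the gap to the nearest library. It was run on 102 sets of values, each a named gene in a group of libraries. Chance alone gives about 1 in 20 of such sets, so 3 of 102 is no more than chance gives. The sorted library that was left out had 2941 counts of the vector-encoded RXRa sequence, against 0 to 17 in the 19 sorted EGFP libraries.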

How the results depend on the processing

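The count of channel genes called in bulk was 0, and 1 without the filter on low counts, 5 with DESeq2 and 0 to 1 with each library left out, the 1 arising without GFP library 1 or RXRa library 2. In D2 it was 37, and 0 with the replicate block, 0 with silent-gene density as covariate, 19 with D2 fitted alone and 0 to 44 with each library left out, the 0 without female RXRa library 4 and the 44 without male RXRa library 1. Within D2 females it was 0, and 18 with DESeq2 and 0 to 27 with each library left out, the 27 without RXRa library 3. Within D2 males it was 0, and 0 to 25 with each library left out, the 25 without RXRa library 1. Between D2 and D1 under EGFP it was 0, and 2 with density as covariate. The D2 log2 fold change of Kcnd2 was -0.0077 with density as covariate, of opposite sign. The cause of these shifts was not tested, and the share of all genes called in each of these fits is not given here. Correlations between the deviations of same-numbered libraries were -0.56 to 0.53 in bulk, -0.19 to 0.25 in D1 females and -0.33 to 0.21 in D2 females. In males they were -0.43 to -0.19 in D1 and -0.30 to 0.64 in D2. With only 3 or 4 such pairs for each population and sex, they cannot show whether the numbers pair the libraries. With the block, 0 channel genes were called in D2, with 37 at an unadjusted p under 0.05. No block value is given for D2 against D1, since numbers are nested in population.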

Other observations

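The sorted library left out of the groups had 15630501 counts in all and a silent-gene density of 0.505 CPM per kb. It had 1459 CPM of Kcnip4, 985 CPM of Kcnd2, 1045 CPM of Kcnq5, 56.0 CPM of Kcna4, 26.5 CPM of Kcna1 and 3.81 CPM of Kcnj8.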
